A study of Danio rerio with 8 samples.

Results

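Insulin-like growth factor binding proteins (IGFBPs) are secreted proteins that hold insulin-like growth factors (IGFs) outside the cell. The 10 zebrafish genes described here were chosen by name: *igfbp1a*, *igfbp1b*, *igfbp2a*, *igfbp2b*, *igfbp3*, *igfbp5a*, *igfbp5b*, *igfbp6a*, *igfbp6b* and *igfbp7*. Of these, 9 were among the 21286 genes of the normalised count table, and *igfbp6a* was not analysed here. A mean value of at least 10 over the 8 libraries, the minimum for testing, was reached by 16077 genes, among them 6 IGFBP genes. The other 3, *igfbp2b*, *igfbp5a* and *igfbp6b*, lay below it and are described by their values.

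In the extracellular space an IGFBP can keep an IGF ligand from its receptor, prolong its life or carry it to the cell surface, so the same protein may restrain or aid growth signaling. Proteases of the pappalysin and HtrA families cut IGFBPs and release the ligand. In mouse embryos the epicardium, the outer cell layer of the heart, is a known source of IGF2 for the myocardium.

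Hearts were taken from zebrafish larvae at 96 hours post-fertilization (hpf), pooled and dissociated, and the cells were sorted into epicardial cells (EpiCs) and cardiomyocytes (CMs). There were 4 groups with 2 libraries each, EpiCs and CMs of *tcf21+/+* larvae and EpiCs and CMs of *tcf21-/-* larvae. All larvae carried *TgBAC(tcf21:NLS-EGFP)*, a nuclear reporter driven by *tcf21* sequence, and *Tg(myl7:mCherry-CAAX)*, a membrane reporter driven by the cardiomyocyte promoter *myl7*. EpiCs were the EGFP-positive cells, and cells positive for both reporters were kept with them, while CMs carried the *myl7* reporter without *tcf21*-driven EGFP. The gene *tcf21* encodes a transcription factor of the epicardium, and the mutant allele is a small deletion in exon 1. The *tcf21-/-* larvae came from *tcf21+/-* intercrosses and were picked for missing head muscles and for substantial epicardial coverage of the ventricle. The *tcf21+/+* larvae came from *tcf21+/+* sibling intercrosses, so genotype and parentage cannot be told apart. The methods speak of biological replicates collected over several sorting sessions, but no source ties a library to a session. The p-values rest on the spread between the 2 libraries of a group, pooled for each gene over all 4 groups. The test, limma, is moderated and draws this spread toward that of all tested genes of like abundance. A comparison of 2 groups thus also draws on the spread of the groups outside it and of other genes.

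The depth, estimated from the step between neighbouring low values, was 6440000 to 11400000 gene reads per library, and 3 reads corresponded to 2.33 to 4.72 normalised counts. These floors cover counting error only, since the reads carry no molecular identifiers. The replicates of *tcf21+/+* CMs differed most, with a standard deviation of their log2 difference over genes of 1.26 against 0.90 to 1.05 in the other groups. The summed level of 7 EpiC markers was 25591 to 29123 in EpiCs and 795 to 1158 in CMs, and that of 8 CM markers was 7724 to 12534 in EpiCs and 84569 to 90386 in CMs. Transcripts of *tcf21* stood at 1600 and 1851 (*tcf21+/+*) and 1636 and 1454 (*tcf21-/-*) in EpiCs, and 80 and 28 (*tcf21+/+*) and 5 and 12 (*tcf21-/-*) in CMs. The EpiC values of the genotypes overlapped, and as a small deletion can leave the transcript in place, they do not check the genotype label.

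The first comparison asked which IGFBP genes differed between EpiCs and CMs within a genotype. Higher in EpiCs of both genotypes were *igfbp3*, *igfbp5b* and *igfbp7*, of which *igfbp5b* differed the most, and higher in CMs of both genotypes were *igfbp1b* and *igfbp2a*. A gene was called when its Benjamini-Hochberg adjusted p from limma was under 0.05 and its absolute log2 fold change (log2FC) of value + 1 was at least 0.59. In *tcf21+/+* hearts 5 of the 6 tested members were called, 3 higher and 2 lower in EpiCs, where 41.7% of all tested genes were called, 22.9% higher and 18.8% lower. In *tcf21-/-* hearts all 6 tested members were called, 4 higher and 2 lower, against 38.9% of all genes, 21.0% higher and 18.0% lower. The groups of 2 did not overlap for any of the 6 members in either genotype, as for 69.2% and 74.9% of all tested genes. The median log2FC of the 6 members was 0.74 in *tcf21+/+* and 1.31 in *tcf21-/-*, beside 0.11 and 0.09 over all genes, and placing *igfbp1b* at its bound given below does not move these medians. The *tcf21+/+* count fell from 5 to 2 without *tcf21+/+* EpiC replicate 1, without *tcf21+/+* EpiC replicate 2 or without *tcf21+/+* CM replicate 1, and to 3 without *tcf21+/+* CM replicate 2. In sorted bulk samples, fewer cells of a type and less RNA per cell cannot be told apart.

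**Figure D1:**
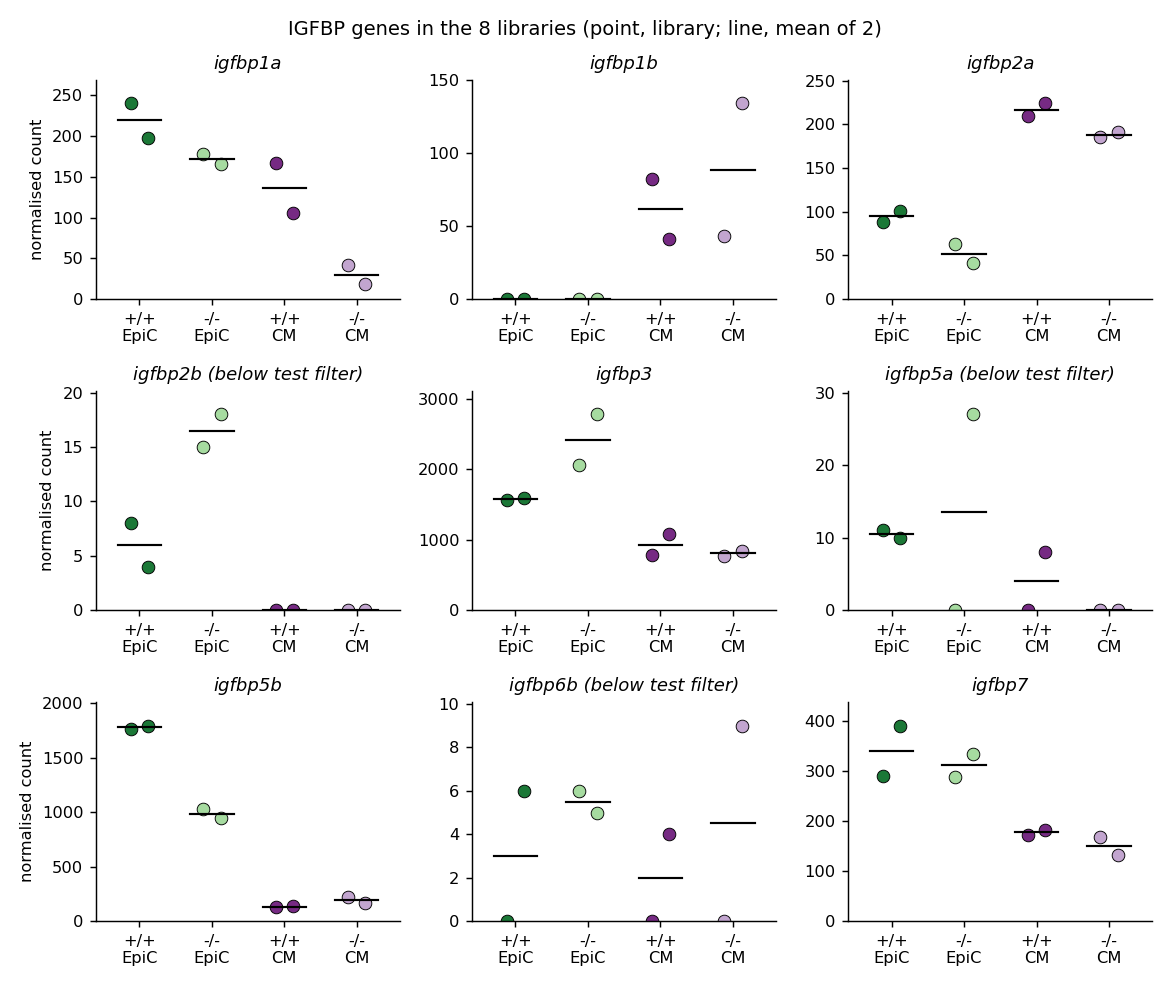
Normalised counts (y axes, linear from 0, scaled per gene) of the 9 IGFBP genes in the 4 groups (x axes), 1 point per library, with a line at the mean of 2. The EpiC libraries lie between 944 and 1795 for *igfbp5b* and the CM libraries between 129 and 228, while *igfbp1b* is at 0 in all 4 EpiC libraries.

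In mammals IGFBP5 binds extracellular matrix and, like IGFBP3, can join an IGF and the acid-labile subunit in a ternary complex. The *igfbp5b* gene (ENSDARG00000025348, GRCz11 chromosome 9, 46820636 to 46842179, minus strand) had normalised counts of 1764 and 1795 (*tcf21+/+*) and 1027 and 944 (*tcf21-/-*) in EpiCs, and 129 and 137 (*tcf21+/+*) and 228 and 165 (*tcf21-/-*) in CMs. Every EpiC library lay above every CM library, and the groups followed each other without overlap in the order EpiCs of *tcf21+/+*, EpiCs of *tcf21-/-*, CMs of *tcf21-/-* and CMs of *tcf21+/+*. The mean was 13.4-fold higher in EpiCs than in CMs in *tcf21+/+* (log2FC 3.73, SE 0.23, adjusted p = 1.6e-05) and 5.02-fold higher in *tcf21-/-* (log2FC 2.34, SE 0.23, adjusted p = 0.00011). The call was made under every alternative in both genotypes. As a share of the EpiC mean, the CM level of *igfbp5b* was 7.47% in *tcf21+/+* and 19.9% in *tcf21-/-*, beside 3.89% and 3.67% for the summed EpiC markers. That marker sum in CMs was mostly *cav1*, at 763 to 870 in CMs and 5366 to 6258 in EpiCs. In the CM libraries *postnb* was 0 to 22, *tbx18* 0 to 26 and *col1a2* 5 to 234.

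IGFBP3 is the main IGF carrier of mammalian blood. The *igfbp3* gene (ENSDARG00000099144, chromosome 20, 6756247 to 6804237, plus strand) had normalised counts of 1564 and 1592 in *tcf21+/+* EpiCs, 2059 and 2783 in *tcf21-/-* EpiCs, 783 and 1080 in *tcf21+/+* CMs, and 770 and 849 in *tcf21-/-* CMs. The *tcf21-/-* EpiCs were highest and the *tcf21+/+* EpiCs next, while the CM groups overlapped each other. The mean was 1.69-fold higher in EpiCs in *tcf21+/+* (log2FC 0.78, SE 0.22, adjusted p = 0.0186) and 2.99-fold higher in *tcf21-/-* (log2FC 1.56, SE 0.22, adjusted p = 0.0006). The *tcf21+/+* call was lost without *tcf21+/+* EpiC replicate 1 (adjusted p = 0.0861), *tcf21+/+* EpiC replicate 2 (0.0920) or *tcf21+/+* CM replicate 1 (0.0706). It was also lost with no abundance trend (0.0671), with the compared groups fitted alone (0.0632) and with a log2FC limit of 1. The CM level of *igfbp3* was 59.0% of the EpiC level in *tcf21+/+* and 33.4% in *tcf21-/-*. The EpiC markers, whose sum in CMs was mostly *cav1*, stood at 3.89% and 3.67%.

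IGFBP7 is a related secreted protein with low affinity for IGFs, known in mammals from blood vessels and matrix. The *igfbp7* gene (ENSDARG00000104138, chromosome 14, 52369262 to 52379718, plus strand) had normalised counts of 290 and 391 in *tcf21+/+* EpiCs, 289 and 334 in *tcf21-/-* EpiCs, 173 and 182 in *tcf21+/+* CMs, and 168 and 132 in *tcf21-/-* CMs. Both EpiC groups lay above both CM groups, and the EpiC groups overlapped each other. The mean was 1.92-fold higher in EpiCs in *tcf21+/+* (log2FC 0.92, SE 0.30, adjusted p = 0.0381) and 2.08-fold higher in *tcf21-/-* (log2FC 1.06, SE 0.30, adjusted p = 0.0228). The *tcf21+/+* call was lost without EpiC replicate 1 or 2 of *tcf21+/+* (adjusted p = 0.0546 and 0.187), EpiC replicate 1 or 2 of *tcf21-/-* (0.0613 and 0.0628) or CM replicate 1 or 2 of *tcf21+/+* (0.0842 and 0.0547), and the *tcf21-/-* call without EpiC replicate 1 or 2 or CM replicate 2 of *tcf21-/-* (0.0689, 0.126 and 0.117). The *tcf21+/+* call was also lost with cyclic loess (0.0788), a replicate block (0.0563), library weights (0.0925), a log2FC limit of 1 and a fit of the compared groups alone (0.0867). The gene overlaps *polr2b* on the opposite strand, and reads that overlapped more than 1 gene were left out of the counts.

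Markers of other cells of the heart also differed between the sorted populations. All 6 smooth muscle and outflow tract markers were in the table and summed to 18089 to 22664 in EpiCs and 2512 to 4667 in CMs. Of these, *myh11a* (5844 to 8153 in EpiCs and 2 to 64 in CMs), *mylka*, *elnb* and *tagln* were higher in every EpiC library than in every CM library. The other 2 were not, with *acta2* at 2413 and 2820 in EpiCs against 3685 and 2831 in CMs in *tcf21+/+* and 2555 and 2486 against 2405 and 2018 in *tcf21-/-*, and *cnn1b* at 174 to 283 in EpiCs and 86 to 207 in CMs. All 6 endothelial and endocardial markers summed to 2830 to 3772 in EpiCs and 496 to 1076 in CMs. Among them *kdrl* (1356 to 2140 and 14 to 58), *fli1a* and *egfl7* were higher in every EpiC library, *tie1* and *kdr* overlapped, and *cdh5* was 1 to 40 in EpiCs and 291 to 651 in CMs. Their part in the EpiC levels of *igfbp3*, *igfbp5b* and *igfbp7* was not tested.

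Igfbp1 is known in zebrafish embryos as a gene of hypoxia and of growth restraint. The *igfbp1a* gene (ENSDARG00000099351, chromosome 20, 6808774 to 6812688, minus strand) had normalised counts of 240 and 198 in *tcf21+/+* EpiCs, 178 and 166 in *tcf21-/-* EpiCs, 167 and 106 in *tcf21+/+* CMs, and 42 and 18 in *tcf21-/-* CMs. The *tcf21-/-* CMs stood below the other 6 libraries, and the higher of the *tcf21+/+* CM libraries reached the range of the *tcf21-/-* EpiCs. The mean was 5.73-fold higher in EpiCs than in CMs in *tcf21-/-* (log2FC 2.60, SE 0.50, adjusted p = 0.0034). That log2FC was 3.19 when CM replicate 1 of *tcf21-/-* was left out and 2.01 when CM replicate 2 was, and the call was made each time. In *tcf21+/+* the log2FC was 0.71 (SE 0.50, 95% interval -0.43 to 1.84, adjusted p = 0.286), and *igfbp1a* was not called. The *tcf21-/-* CM values correspond to about 37 and 18 reads.

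The second copy, *igfbp1b* (ENSDARG00000038666, chromosome 2, 124433 to 127945, minus strand), was at 0 in all 4 EpiC libraries, and 82 and 41 (*tcf21+/+*) and 43 and 134 (*tcf21-/-*) in CMs. It was thus read in CMs of both genotypes, where the genotypes overlapped. Against the level of 3 reads in the EpiC library with the highest floor, the mean was at least 22.9-fold higher in CMs in *tcf21+/+* (adjusted p = 0.00077) and at least 35.0-fold higher in *tcf21-/-* (adjusted p = 0.0006). The CM libraries of a genotype differed, and the bound became 15.2-fold in *tcf21+/+* when CM replicate 1 was left out, and in *tcf21-/-* 53.0-fold when CM replicate 1 was and 17.0-fold when CM replicate 2 was. The call was made under every alternative that tested the gene, and with a minimum mean of 50 it was not tested. All 6 leukocyte markers were in the table and summed to 12 to 47 in EpiCs, 450 and 572 in *tcf21+/+* CMs, and 1547 and 2242 in *tcf21-/-* CMs. Of these, *ptprc* was at 0 in every EpiC library, and at 17 and 0 (*tcf21+/+*) and 75 and 128 (*tcf21-/-*) in CMs. The other leukocyte markers were each read in EpiCs, and *mpx* was 0 to 6 in EpiCs and 0 to 16 in CMs. Their part in the CM level of *igfbp1b* was not tested.

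Igfbp2 genes are known in zebrafish for effects on growth and vessel formation. The *igfbp2a* gene (ENSDARG00000052470, chromosome 6, 20921542 to 20952187, minus strand) had normalised counts of 88 and 101 in *tcf21+/+* EpiCs, 63 and 41 in *tcf21-/-* EpiCs, 209 and 224 in *tcf21+/+* CMs, and 185 and 191 in *tcf21-/-* CMs. Every CM library lay above every EpiC library, and within each cell type the *tcf21-/-* pair was lower than the *tcf21+/+* pair without overlap. Such pairs did not overlap, in either direction, for 43.1% of all tested genes in EpiCs and 39.8% in CMs. The mean was 2.29-fold higher in CMs than in EpiCs in *tcf21+/+* (EpiC over CM log2FC -1.19, SE 0.39, adjusted p = 0.0375) and 3.62-fold higher in *tcf21-/-* (log2FC -1.87, SE 0.39, adjusted p = 0.0053). The *tcf21+/+* call was lost without EpiC replicate 1 or 2 of *tcf21+/+* (adjusted p = 0.142 and 0.0935), CM replicate 1 or 2 of *tcf21+/+* (0.0733 and 0.0800) or CM replicate 1 or 2 of *tcf21-/-* (0.0537 and 0.0533). It was also lost with equal library totals (0.0574), library weights (0.0962), the compared groups alone (0.0616) and a replicate block (0.0570). The EpiC level of *igfbp2a* was 43.6% of the CM level in *tcf21+/+* and 27.7% in *tcf21-/-*. The 8 summed CM markers stood at 11.2% and 10.5%, but they differed among themselves. In EpiCs *myl7* was 1222 to 1377, *tnnt2a* 1300 to 1470 and *cmlc1* 906 to 1025. In CMs these were 2466 to 3718, 2273 to 3569 and 1443 to 2301. The cell types stood further apart for the other markers, *ttn.1*, *ttn.2*, *myh6*, *myh7* and *nppa*. The part of CM transcripts in the EpiC libraries in these levels was not tested.

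**Figure D2:**
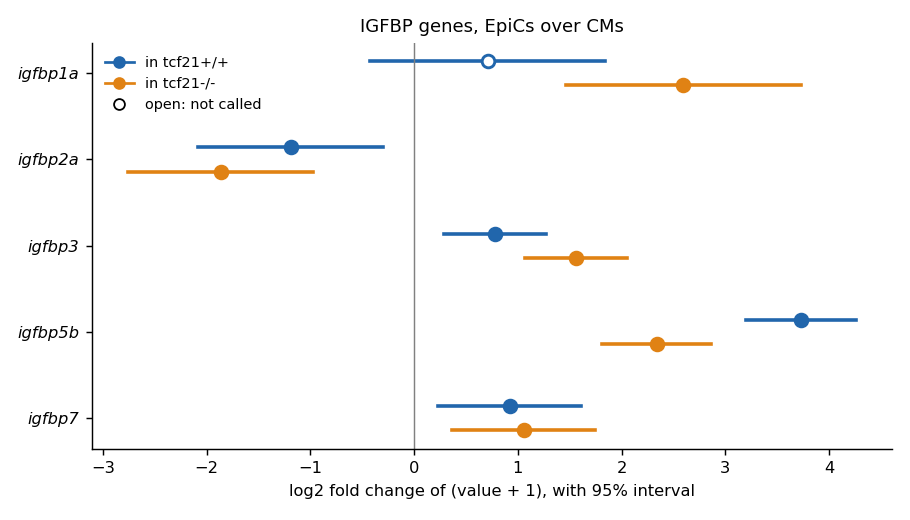
Log2 fold change of value + 1, EpiCs over CMs (x axis), with 95% limma intervals, for 5 tested IGFBP genes (y axis) in *tcf21+/+* (blue) and *tcf21-/-* (orange), filled where called. The *igfbp5b* estimates are 3.73 and 2.34 and only *igfbp2a* lies below 0 among the genes drawn, while *igfbp1b* is left out because its EpiC values are all 0.

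The 3 members below the minimum had values between 0 and 27. The *igfbp2b* gene (ENSDARG00000031422, chromosome 9, 46745348 to 46799620, plus strand) had 8 and 4 (*tcf21+/+*) and 15 and 18 (*tcf21-/-*) normalised counts in EpiCs, and 0 in all 4 CM libraries. It was detected in EpiCs alone, at levels at least 1.27-fold higher than in CMs in *tcf21+/+* and at least 4.82-fold higher in *tcf21-/-*. The *tcf21+/+* bound rests on EpiC replicate 1, since the 4 of replicate 2 is under the level of 3 reads in *tcf21+/+* CM replicate 1 (4.72). In a fit without the minimum, *igfbp2b* was called in both genotypes (adjusted p = 0.0256 and 0.0043), and the genotypes did not differ in EpiCs by a called amount (adjusted p = 0.722). The *igfbp5a* gene (ENSDARG00000039264, chromosome 6, 20910551 to 20918694, plus strand), known in zebrafish from calcium-transporting ionocytes of the skin, had 11 and 10 (*tcf21+/+*) and 0 and 27 (*tcf21-/-*) in EpiCs, and 0 and 8 (*tcf21+/+*) and 0 and 0 (*tcf21-/-*) in CMs. The *igfbp6b* gene (ENSDARG00000090833, chromosome 23, 36601984 to 36605837, plus strand), whose mammalian relative prefers IGF2 over IGF1, had 0 and 6, 6 and 5, 0 and 4, and 0 and 9 in the same order. For *igfbp5a* the *tcf21+/+* EpiCs lay above both CM groups and the other groups overlapped or met at 0, and for *igfbp6b* the *tcf21-/-* EpiCs lay above the *tcf21+/+* CMs and the other groups overlapped. Neither gene was called in any contrast of that fit, and a difference was not detectable at this depth.

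Some of the members form pairs by origin or by place. Of the duplicates named a and b, *igfbp2a* was higher in CMs while *igfbp2b* was read in EpiCs alone, and *igfbp1b* was read in CMs alone while *igfbp1a* was read in all 8 libraries. While *igfbp5b* was higher in EpiCs of both genotypes, *igfbp5a* was below the minimum and not called. Its values were 11 and 10 in EpiCs against 0 and 8 in CMs in *tcf21+/+*, and 0 and 27 against 0 and 0 in *tcf21-/-*. Along the chromosomes, *igfbp3* and *igfbp1a* lay tail to tail 4.5 kb apart, *igfbp5a* and *igfbp2a* 2.8 kb apart, and *igfbp2b* and *igfbp5b* 21.0 kb apart, each with 0 other genes of the table between them. The neighbours *igfbp2b* and *igfbp5b* were both higher in EpiCs, and so were *igfbp3* and *igfbp1a* in *tcf21-/-*, whereas *igfbp2a* was higher in CMs beside a neighbour, *igfbp5a*, that stayed between 0 and 27. Whether neighbours were more alike than other genes was not tested.

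The second comparison asked which IGFBP genes differed between *tcf21-/-* and *tcf21+/+* EpiCs. No member was called with limma, where 0.193% of all tested genes were called, and no other tool was run. At an unadjusted p under 0.05 stood 2 of 6 members, *igfbp5b* and *igfbp3*, against 8.46% of all genes. The 2 libraries of each genotype did not overlap for 4 of 6 members, as for 43.1% of all genes, with *igfbp3* higher and *igfbp1a*, *igfbp2a* and *igfbp5b* lower in *tcf21-/-*. For *igfbp5b* the *tcf21+/+* mean was 1.81-fold the *tcf21-/-* mean (log2FC -0.85, SE 0.23, 95% interval -1.38 to -0.32, adjusted p = 0.299). For *igfbp3* the *tcf21-/-* mean was 1.53-fold the *tcf21+/+* mean (log2FC 0.60, SE 0.22, 95% interval 0.11 to 1.09, adjusted p = 0.481). The adjusted p stayed above the threshold for both under all alternatives, the lowest being 0.115 for *igfbp5b* and 0.191 for *igfbp3*. Between the same EpiC libraries, the smooth muscle and outflow tract markers summed to 18461 and 18089 in *tcf21+/+* and 20386 and 22664 in *tcf21-/-*. Of these, *myh11a*, *mylka* and *elnb* were higher in *tcf21-/-* without overlap, while *acta2*, *tagln* and *cnn1b* overlapped. The leukocyte markers summed to 20 and 12 and to 43 and 47. Among them only *lcp1* (1 and 0 against 7 and 31) was higher without overlap, and the others overlapped or met at 0. The endothelial and endocardial sum overlapped (3772 and 2830 against 3627 and 3722). Its members *tie1* (19 and 44 against 184 and 196) and *fli1a* (1324 and 1019 against 1399 and 1909) were higher in *tcf21-/-* without overlap. The marker *egfl7* (272 and 294 against 270 and 247) was lower without overlap, while *kdrl*, *kdr* and *cdh5* overlapped or met. The part of all these markers in the *igfbp3* and *igfbp5b* values was not tested.

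The log2FC in EpiCs was -0.88 for *igfbp2a* (95% interval -1.77 to 0.01, adjusted p = 0.596), -0.34 for *igfbp1a* (-1.48 to 0.80, adjusted p = 0.945) and -0.12 for *igfbp7* (-0.81 to 0.58, adjusted p = 0.975). These intervals all reach past 0, and differences within them were not detectable. Beside *igfbp2a*, the CM marker *nppa* was 740 and 618 (*tcf21+/+*) and 127 and 80 (*tcf21-/-*) in EpiCs, and *myh6* was 540 and 229 against 88 and 130. The *myl7* values, 1333 and 1377 against 1327 and 1222, were also lower in *tcf21-/-* without overlap. Of the other CM markers, *myh7* (3326 and 1427 against 2514 and 2935), *ttn.1*, *ttn.2*, *tnnt2a* and *cmlc1* overlapped. The 8 CM markers summed to 12534 and 7724 against 9559 and 8805, which overlapped. Their part in the *igfbp2a* values was not tested. The *igfbp1b* gene was at 0 in all 4 EpiC libraries.

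**Figure D3:**
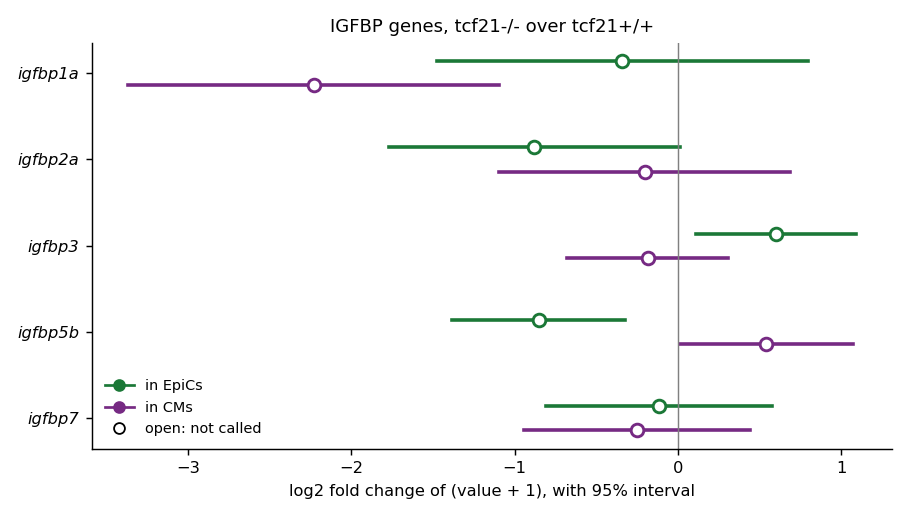
Log2 fold change of value + 1, *tcf21-/-* over *tcf21+/+* (x axis), with 95% limma intervals, for 5 tested IGFBP genes (y axis) in EpiCs (green) and CMs (purple); open points were not called. No member was called, and the estimates for *igfbp5b* are -0.85 in EpiCs and 0.54 in CMs, those for *igfbp1a* -0.34 and -2.23, while *igfbp1b*, at 0 in EpiCs, is left out.

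In CMs, the third comparison, no member was called either, against 0.367% of all tested genes, again with limma as the only tool. At an unadjusted p under 0.05 stood 2 of 6 members, *igfbp1a* and *igfbp5b*, against 12.2% of all genes. The libraries of the genotypes did not overlap for 4 of 6 members, as for 39.8% of all genes, with *igfbp5b* higher and *igfbp1a*, *igfbp2a* and *igfbp7* lower in *tcf21-/-*. The *tcf21+/+* mean of *igfbp1a* was 4.55-fold the *tcf21-/-* mean (log2FC -2.23, SE 0.50, 95% interval -3.37 to -1.09, adjusted p = 0.141), and the log2FC was -2.82 when CM replicate 1 of *tcf21-/-* was left out and -1.64 when CM replicate 2 was. Without *tcf21+/+* CM replicate 2, *igfbp1a* was called (log2FC -2.56, adjusted p = 0.0396), in a fit that called 1358 genes in place of 59, and over all alternatives its adjusted p ran from 0.0396 to 0.660. Between the same CM libraries, the smooth muscle and outflow tract markers summed to 4667 and 3669 in *tcf21+/+* and 2851 and 2512 in *tcf21-/-*. This sum was lower in *tcf21-/-* without overlap, as *igfbp1a* was, but it was mostly *acta2* (3685 and 2831 against 2405 and 2018). Of the other markers only *tagln* (757 and 431 against 257 and 254) was lower without overlap, while *myh11a*, *mylka*, *elnb* and *cnn1b* overlapped. The leukocyte markers given above were higher in sum in *tcf21-/-* CMs without overlap. The EpiC marker sum, mostly *cav1*, overlapped at 1079 and 1081 in *tcf21+/+* CMs and 795 and 1158 in *tcf21-/-* CMs. Of these markers, *tcf21* (80 and 28 against 5 and 12) and *cav1* (870 and 838 against 763 and 837) were lower without overlap. The others, *wt1a*, *tbx18*, *postnb*, *aldh1a2* and *col1a2*, overlapped or met at 0. The part of all these markers in the *igfbp1a* and *igfbp5b* values was not tested.

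For *igfbp5b* in CMs the *tcf21-/-* mean was 1.48-fold the *tcf21+/+* mean (log2FC 0.54, SE 0.23, 95% interval 0.01 to 1.07, adjusted p = 0.403). The log2FC was 0.38 for *igfbp1b* (-1.58 to 2.35, adjusted p = 0.870), -0.20 for *igfbp2a* (-1.09 to 0.69, adjusted p = 0.843), -0.19 for *igfbp3* (-0.68 to 0.31, adjusted p = 0.707) and -0.25 for *igfbp7* (-0.94 to 0.44, adjusted p = 0.719). The interval of *igfbp1b* is the widest, and its highest CM library was *tcf21-/-* CM replicate 2.

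The genotype differences themselves were then compared between EpiCs and CMs as an interaction. No member was called, nor was any of the 16077 genes (0.0%), with limma as the only tool, and 3 of 6 members had an unadjusted p under 0.05, against 7.07% of all genes. The difference was largest relative to its error for *igfbp5b* (EpiC minus CM -1.39 on the log2 scale, SE 0.33, 95% interval -2.14 to -0.65, adjusted p = 0.268). For *igfbp1a* it was 1.89 (SE 0.71, adjusted p = 0.614, and 1.30 to 2.48 with a library left out) and for *igfbp3* 0.79 (SE 0.30, adjusted p = 0.635). The genotype difference averaged over both cell types gave no called member either, against 0.0746% of all genes, and 1 of 6, *igfbp1a*, at an unadjusted p under 0.05, against 14.9%. That average was -1.29 for *igfbp1a* (SE 0.35, 95% interval -2.09 to -0.48, adjusted p = 0.214), and all 4 *tcf21-/-* libraries lay below the *tcf21+/+* libraries of their own cell type. The libraries of *igfbp2a* stood in the same order, with an average of -0.54 (adjusted p = 0.381). How many of all tested genes stand in one such order in both cell types was not counted. In either direction, the genotypes did not overlap for 43.1% of all tested genes in EpiCs and 39.8% in CMs.

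The ratio of *igfbp5b* to *igfbp3* within a library does not depend on the scaling between libraries and was computed after the values had been seen. It was 1.13 and 1.13 (*tcf21+/+*) and 0.499 and 0.339 (*tcf21-/-*) in EpiCs, and 0.165 and 0.127 (*tcf21+/+*) and 0.296 and 0.194 (*tcf21-/-*) in CMs. The 4 groups did not overlap in this ratio, with *tcf21-/-* below *tcf21+/+* in EpiCs and above it in CMs. No test was made of it, since it was chosen with its values in view.

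**Figure D4:**
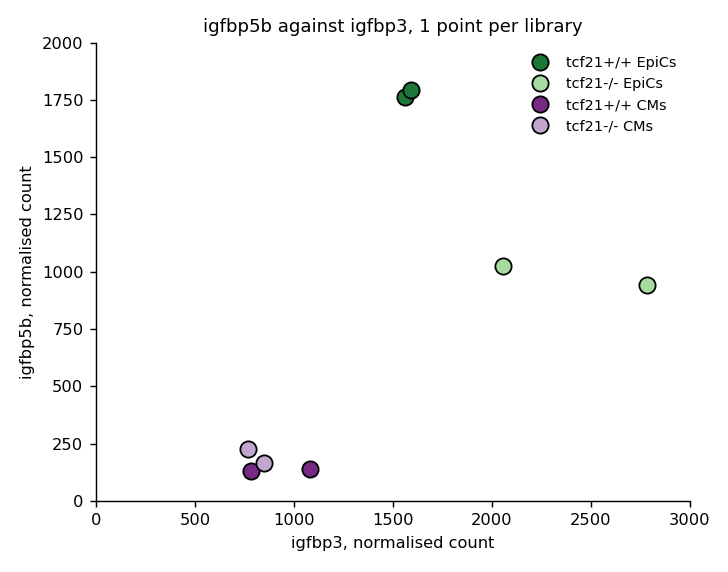
Normalised counts of *igfbp3* (x axis) and *igfbp5b* (y axis), both linear from 0, 1 point per library coloured by group. The *tcf21+/+* EpiCs lie at 1764 and 1795 for *igfbp5b*, the *tcf21-/-* EpiCs at 1027 and 944 with *igfbp3* at 2059 and 2783, and all CM libraries at or below 228 for *igfbp5b*.

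Other genes were ranked by how closely their log2 values followed each member over the 8 libraries. These 8 points share 2 cell types, so a gene that differs between EpiCs and CMs correlates with many others, and the correlations are descriptions. The closest to *igfbp5b* were *map2k1* (r = 0.996) and *pak2a* (r = 0.994), with 864 genes above 0.95, and the closest to *igfbp7* were *napga* (0.997) and *bcl2a* (0.987), with 248. For *igfbp1b* they were *tmem91* (0.997) and *si:dkey-23a13.2* (0.993), with 948, and for *igfbp2a* *parp6b* (0.993) and *shisa2b* (0.992), with 216. The pattern of *igfbp3* was followed by *CABZ01111953.1* (0.989) and *ddx19* (0.987), with 99 genes above 0.95. Only 17 genes reached 0.95 with *igfbp1a*, led by *irak1bp1* (0.993) and *nod2* (0.985). The *irak1bp1* values were 236 and 218 (*tcf21+/+*) and 234 and 176 (*tcf21-/-*) in EpiCs, and 167 and 93 (*tcf21+/+*) and 38 and 17 (*tcf21-/-*) in CMs, close to the steps of *igfbp1a*.

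The remaining genes of the IGF system were taken from a list of 31 ligands, receptors, adapters, IGFBP-cutting proteases and their inhibitors, of which 27 were in the table and 22 were tested. In *tcf21+/+* 8 were higher in EpiCs, 2 lower and 12 not called, with a median log2FC of 0.44, and in *tcf21-/-* 8 were higher, 3 lower and 11 not called, with a median of 0.70. Of all tested genes 22.9% were higher and 18.8% lower in *tcf21+/+*, and 21.0% and 18.0% in *tcf21-/-*, with medians of 0.11 and 0.09. With the genes at 0 in both CM libraries (4 in *tcf21+/+* and 2 in *tcf21-/-*) set to their bounds against 3 reads, the medians were again 0.44 and 0.70. The ligands *igf1* and *igf2b* and the HtrA proteases *htra1a*, *htra1b* and *htra3a* were higher in EpiCs of both genotypes under every alternative, while *kazald3*, which encodes a protein with an IGFBP-type domain, and *stc2a*, a relative of the mammalian pappalysin inhibitor stanniocalcin, were higher in CMs. Their relatives went the other way, *stc2b* higher in EpiCs of both genotypes under every alternative and *kazald2* higher in *tcf21-/-* EpiCs. Of the 5 receptor genes, *igf1ra*, *igf1rb*, *igf2r*, *insra* and *insrb*, 0 were called between EpiCs and CMs in either genotype with limma. At an unadjusted p under 0.05 stood 0 in *tcf21+/+* and 1, *insra*, in *tcf21-/-*. Of all 16077 tested genes, 8164 in *tcf21+/+* and 7636 in *tcf21-/-* did so.

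Among the ligands, *igf2b* was 4158 and 4228 (*tcf21+/+*) and 4591 and 4406 (*tcf21-/-*) in EpiCs, and 132 and 192 (*tcf21+/+*) and 408 and 488 (*tcf21-/-*) in CMs. It was higher in EpiCs (log2FC 4.71 in *tcf21+/+* and 3.33 in *tcf21-/-*, adjusted p = 6.9e-06 and 1.7e-05). It was also the only gene of the list called between genotypes, higher in *tcf21-/-* CMs than in *tcf21+/+* CMs (log2FC 1.48, SE 0.21, adjusted p = 0.0401). That call was lost without EpiC replicate 1 or 2 of *tcf21+/+* (adjusted p = 0.144 and 0.150), EpiC replicate 1 or 2 of *tcf21-/-* (0.170 and 0.169) or CM replicate 1 or 2 of *tcf21-/-* (0.108 and 0.144). Between these CM libraries the leukocyte markers were higher in sum in *tcf21-/-* without overlap, as given above. The smooth muscle and outflow tract markers, whose sum was mostly *acta2*, were lower in sum. The EpiC markers, whose sum in CMs was mostly *cav1*, overlapped in sum (1079 and 1081 in *tcf21+/+* CMs against 795 and 1158 in *tcf21-/-* CMs). Of them *tcf21* and *cav1* were lower in *tcf21-/-* CMs without overlap, as given above. The part of all these markers in the *igf2b* values was not tested. The *igf1* values were 126 and 128 (*tcf21+/+*) and 167 and 166 (*tcf21-/-*) in EpiCs and 0 in all CM libraries, so that the EpiC level was at least 26.9-fold higher in *tcf21+/+* and at least 48.7-fold higher in *tcf21-/-*. The *igf2a* values scattered between 0 and 51 over the 8 libraries without a call.

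Among the proteases, *htra1a* was 3137 and 3616 (*tcf21+/+*) and 3457 and 3301 (*tcf21-/-*) in EpiCs, and 14 to 25 in CMs (log2FC 7.41 and 7.64). The *htra1b* values were 1337 and 1167, 1842 and 1446 in EpiCs of the same groups and 42 to 99 in CMs, a log2FC of 4.20 in *tcf21-/-* and 4.56 in *tcf21+/+*. The *htra3a* values were 544 to 861 in EpiCs and 0 in all CM libraries, a difference of at least 125-fold in *tcf21+/+* and 223-fold in *tcf21-/-*. In the other direction, *kazald3* was 21 to 35 in EpiCs and 963 to 1535 in CMs (log2FC -5.29 and -5.52). For *stc2a* the values were 417 and 571, 245 and 275 in EpiCs, and 873 and 881, 501 and 623 in CMs, each *tcf21+/+* before *tcf21-/-* (EpiC over CM log2FC -0.84 and -1.10, adjusted p = 0.0204 and 0.0062), and its *tcf21+/+* call was lost without *tcf21+/+* EpiC replicate 1 (0.121) and its *tcf21-/-* call without *tcf21-/-* CM replicate 2 (0.0549). The *tcf21+/+* call was also lost with library weights (0.0555), the compared groups alone (0.0602) and a log2FC limit of 1.

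The second stanniocalcin gene, *stc2b*, was 116 and 250 (*tcf21+/+*) and 372 and 148 (*tcf21-/-*) in EpiCs, and 0 and 0 (*tcf21+/+*) and 0 and 9 (*tcf21-/-*) in CMs. It was at least 38.8-fold higher in *tcf21+/+* EpiCs (24.6-fold without EpiC replicate 2, adjusted p = 0.00083), and its log2FC in *tcf21-/-* was 6.22 (4.56 to 7.88 with a library left out, adjusted p = 0.0023). The *kazald2* values were 19 and 24 (*tcf21+/+*) and 147 and 70 (*tcf21-/-*) in EpiCs and 0 to 8 in CMs, called in *tcf21-/-* (log2FC 4.89, adjusted p = 0.0084) and lost there without EpiC replicate 1 (0.0659) or CM replicate 2 (0.0578). The insulin receptor substrate adapters also differed in direction in *tcf21-/-*, with *irs2a* higher in CMs (log2FC -1.60, adjusted p = 0.0049) and *irs2b* higher in EpiCs (log2FC 0.95, adjusted p = 0.0166). The *irs2b* call was lost without any one of the 4 *tcf21-/-* libraries (0.0588 to 0.0999), with no abundance trend (0.0630) and with a log2FC limit of 1. In *tcf21+/+* the acid-labile subunit gene *igfals* was 23 and 66 in EpiCs and 0 in both CM libraries (adjusted p = 0.0119), a call lost without EpiC replicate 2 (0.0879) and with cyclic loess (0.0642). The pappalysin gene *pappaa* was 206 and 165 in EpiCs and 2 and 38 in CMs of *tcf21+/+* (log2FC 4.10, adjusted p = 0.0110, with 2.25 and 5.95 without CM replicate 1 or 2), a call lost without either EpiC library (0.0858 and 0.0684) and with the compared groups alone (0.0652). The genes *htra1b*, *insra*, *stc2b*, *kazald2*, *irs2b*, *igfals* and *pappaa* were named after their values had been seen.

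Between genotypes, 0 of the 22 genes were called in EpiCs (0.193% of all genes) and 1 in CMs (0.367%). In the interaction (0.0% of all genes) and the average (0.0746%) 0 were called. At an unadjusted p under 0.05 stood 3 in EpiCs (8.46% of all genes), 5 in CMs (12.2%), 1 in the interaction (7.07%) and 6 in the average (14.9%).

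**Figure D5:**
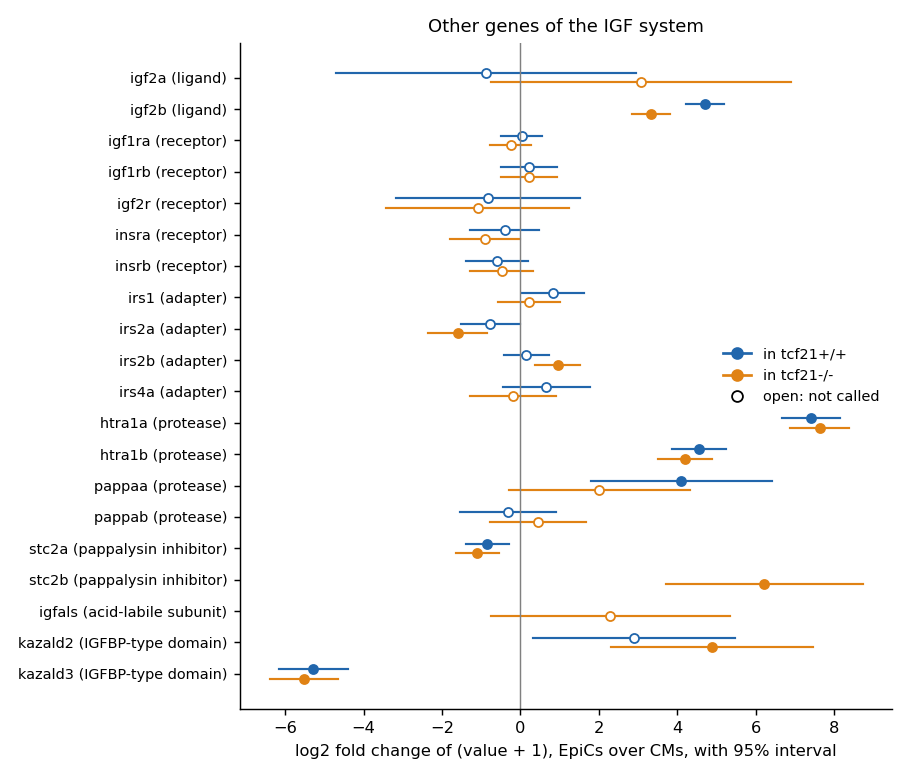
Log2 fold change of value + 1, EpiCs over CMs (x axis), with 95% limma intervals, for tested genes of the IGF system other than IGFBPs (y axis, role in brackets) in *tcf21+/+* (blue) and *tcf21-/-* (orange), filled where called; contrasts with a group at 0 in both libraries are not drawn. The *htra1a*, *htra1b* and *igf2b* estimates lie above 3.3, *kazald3* lies below -5.2, and the receptors lie between -1.09 (*igf2r*) and 0.22 (*igf1rb*) with open points.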

How the data were processed

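RNA from sorted zebrafish EpiCs and CMs (96 hpf, 2 libraries in each of 4 groups) was amplified with SMART-Seq v4 and sequenced by the authors. Reads were trimmed with Trimmomatic 0.39, aligned to danRer11 (GRCz11) with STAR 2.7.3a and counted per gene with featureCounts 1.6.5, leaving out reads that overlapped several genes or aligned to several places. The strand setting of the counting was not given in the sources used here. The deposited values are a normalised signal: gene counts that the authors divided by 1 size factor per library (DESeq2 1.26.0) and rounded. The step between low values gave the depth, and the step search found 9 of 9 simulated steps within 0.001. Whole reads could not be recovered from libraries with steps below 1, so no count test was run, and the design's log-scale test was used.

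Values were taken as log2(value + 1) and fitted with limma 3.58.1 (R 4.3.3) with an abundance trend, all 8 libraries in 1 fit with 4 group means, over the 16077 genes whose values averaged 10 or more. The p-values were adjusted by Benjamini-Hochberg over all of these genes, and a gene was called at an adjusted p under 0.05 with an absolute log2FC of at least 0.59. Tables and figures were made with Python 3.11.15, pandas 2.3.3, numpy 2.4.6 and matplotlib 3.10.9. The alternatives were a pseudocount of 5 or 0.5, no minimum or a mean of 50, equal library totals, cyclic loess, no trend, library weights, the compared groups alone, a replicate block, a log2FC limit of 1 and each library left out. Both libraries of a group received the same weight, 0.455 in *tcf21+/+* CMs and 1.194 to 1.486 in the other groups. The library weights thus weighted whole groups and could not set apart a single library. The IGFBP genes, the gene lists and the tests were chosen with earlier results of these data known. Named were every IGFBP gene in the table, from the IGF system up to 3 called genes per contrast and direction with the smallest p plus *igf1*, *igf2a* and *igf2b*, the 2 genes most like each tested IGFBP gene, and *tcf21*. The marker sums of red blood cells (7 to 499), pigment and neural crest cells (0 to 39) and liver (5 to 1780, the highest in EpiCs and nearly all *tfa*) were also computed. No sequences were printed, as none was read here.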

Additional observations from a re-analysis of the deposited data

How the results depend on the processing

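Over 19 alternatives (18 for the interaction and the average, where the compared groups alone could not be fitted), the number of called IGFBP genes between EpiCs and CMs was 5 or 6 in *tcf21-/-*, and 0 members were called between genotypes in EpiCs, in the interaction or in the average under any of them. In *tcf21+/+* the count of 5 became 4 with a minimum mean of 50 (of 5 tested), equal library totals, cyclic loess or no trend, 3 with library weights, 2 with the compared groups alone, 3 with a log2FC limit of 1, and 2 to 4 with a library left out. With the replicate number as a block it became 3, as *igfbp2a* and *igfbp7* missed the threshold (adjusted p = 0.0570 and 0.0563). Between pairs of groups, the replicate deviations correlated at -0.081 to 0.067 over genes. These values cannot decide whether libraries with the same number shared a sorting session, as no source ties a library to a session. Under the block 9 genes were called between genotypes in EpiCs in place of 31, and 1 in CMs in place of 59. In CMs the count of called members between genotypes was 0 to 1 with a library left out. Of 648 values of single IGFBP genes, 605 kept direction and side of the threshold, 30 lost the call, 1 gained it and 12 changed sign. No called value changed sign. The *igfbp1b* difference between genotypes in CMs was -0.052 with cyclic loess and -0.42 to 1.19 with a library left out, its interaction 0.11 and -1.19 to 0.42, and its average -0.21 to 0.60. With a library left out, the *igfbp3* difference in CMs was -0.42 to 0.046, the *igfbp7* difference in EpiCs -0.33 to 0.10 and the *igfbp7* interaction -0.080 to 0.35. The *igf2b* call between genotypes in CMs was lost without the minimum (adjusted p = 0.0562), with equal library totals (0.0564), without the trend (0.129), with library weights (0.111), with the compared groups alone (0.660) and under the block (0.0607). The causes were not tested. Over all genes, calls between genotypes ran from 0 to 133 in EpiCs (31 as reported) and from 0 to 1358 in CMs (59), from 0 to 119 in the interaction (0) and from 0 to 1060 in the average (12). With equal library totals the median of all genes between EpiCs and CMs in *tcf21+/+* was 0.24 in place of 0.11. Of the few genes called in the average, 4 of 6 (66.7%) were then higher, in place of 5 of 12 (41.7%).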
